A study of Mus musculus with 5 samples.

Results

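Open chromatin at 35 genes for epigenetic regulators that are mutated in, or support, myeloid leukaemia was described in 5 ATAC-seq libraries of mouse bone marrow. A peak belonged to a gene where it overlapped the mm10 gene body extended by 10 kb on each side, here called the window. The 35 genes are 35 of 21887 protein-coding genes of the gene table. No value of the peaks entered the rule that chose them, but earlier results of these data were known when they were chosen. They fell into 6 classes: 6 genes of DNA methylation, 9 Polycomb genes, 2 H3K27 demethylases, 7 genes of MLL complexes and other histone methyltransferases, 6 histone deacetylases (HDACs) and corepressors, and 5 acetyltransferases and remodellers.

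All 5 libraries came from lineage-depleted bone marrow, labelled haematopoietic stem and progenitor cells (HSPC), of mice that carried Mx1-Cre and the inv(16) allele. Each had been treated with PIPC, which induces interferon as an analogue of viral RNA. The 2 Smc3-het libraries carried 1 altered Smc3 allele, written D/+ in the labels, and the 3 Smc3-wt libraries carried none. Smc3 forms part of cohesin, a ring-shaped complex that extrudes and holds chromatin loops. Mx1-Cre answers to interferon in blood cells and also in other tissues, so neither genotype is confined to HSPC. Both groups carry inv(16), Mx1-Cre and PIPC, and therefore none of these is tested by the comparison. Whether the libraries stem from separate mice is not stated in the labels, and the spread between libraries may be technical.

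The DNA methyltransferases add methyl groups to cytosine in CpG dinucleotides and the Tet enzymes oxidise them. Polycomb complexes methylate histone H3 at H3K27 and ubiquitinate histone H2A at silent genes, whereas the MLL methyltransferases and the Kdm6 demethylases oppose them. Loss of Tet2, Dnmt3a, Asxl1 or Ezh2 is common in human myeloid neoplasia, and Kmt2a, the gene of MLL, is broken by translocations there. Most promoters of such widely used regulators are rich in CpG, and in ATAC-seq an open promoter gives a peak at the start of the gene.

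Promoter sequences show which of several annotated starts carried a peak. The 250 bases before a start, 5′ to 3′ on the strand of the gene and with each CpG in capitals, are from RefSeq on GRCm38.p6, the assembly of mm10, which held 39 starts of 29 members. Phf6, Kdm6b, Hdac1, Chd7, Hdac3 and Nsd1 had no entry. Dnmt1, Dnmt3a and Ncor1 are shown because, in lists cut to equal length, each had a start with a peak in 5 of 5 libraries. Dnmt1 had 2 such starts, of which start 3 is shown. Another start of each had none in those lists. Hdac2 and Tet2 are shown because their gene-end peaks were among the strongest, and Ezh1 and Tet1 because theirs were among the weakest.
Dnmt1 start 1 (chr9:20959889-20960138, minus strand): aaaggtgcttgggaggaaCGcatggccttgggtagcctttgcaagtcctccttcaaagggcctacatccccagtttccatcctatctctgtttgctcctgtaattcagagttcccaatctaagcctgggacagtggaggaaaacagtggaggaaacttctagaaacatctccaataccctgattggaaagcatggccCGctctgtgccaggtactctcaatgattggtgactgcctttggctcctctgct
Dnmt1 start 3 (chr9:20952624-20952873, minus strand): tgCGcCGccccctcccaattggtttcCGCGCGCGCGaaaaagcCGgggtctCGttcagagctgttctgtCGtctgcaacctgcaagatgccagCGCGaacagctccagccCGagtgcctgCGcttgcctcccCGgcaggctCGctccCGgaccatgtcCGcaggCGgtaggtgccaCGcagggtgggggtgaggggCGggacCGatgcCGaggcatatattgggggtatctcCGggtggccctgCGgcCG
Dnmt3a start 2 (chr12:3806910-3807159, plus strand): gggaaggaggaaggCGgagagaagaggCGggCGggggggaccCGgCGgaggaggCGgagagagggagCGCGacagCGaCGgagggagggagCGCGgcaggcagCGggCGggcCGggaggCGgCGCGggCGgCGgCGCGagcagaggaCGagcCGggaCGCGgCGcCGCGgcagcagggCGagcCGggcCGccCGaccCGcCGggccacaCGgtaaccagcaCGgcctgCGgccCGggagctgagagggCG
Dnmt3a start 3 (chr12:3891494-3891743, plus strand): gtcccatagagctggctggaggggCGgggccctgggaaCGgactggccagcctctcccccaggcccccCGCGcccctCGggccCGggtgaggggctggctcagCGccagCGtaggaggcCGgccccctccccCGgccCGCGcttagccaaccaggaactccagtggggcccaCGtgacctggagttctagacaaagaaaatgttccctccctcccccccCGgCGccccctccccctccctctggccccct
Ncor1 start 1 (chr11:62457333-62457582, minus strand): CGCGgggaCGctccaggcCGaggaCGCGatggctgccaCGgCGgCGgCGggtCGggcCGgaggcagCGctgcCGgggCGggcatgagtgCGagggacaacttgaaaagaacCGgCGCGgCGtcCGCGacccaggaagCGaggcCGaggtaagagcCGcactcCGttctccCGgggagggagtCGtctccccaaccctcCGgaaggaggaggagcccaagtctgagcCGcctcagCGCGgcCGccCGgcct
Ncor1 start 2 (chr11:62438516-62438765, minus strand): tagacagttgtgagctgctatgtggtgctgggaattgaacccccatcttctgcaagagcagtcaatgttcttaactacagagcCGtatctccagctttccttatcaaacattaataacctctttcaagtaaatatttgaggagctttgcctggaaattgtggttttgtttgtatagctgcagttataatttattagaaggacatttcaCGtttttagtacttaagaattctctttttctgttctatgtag
Hdac2 (chr10:36974294-36974543, plus strand): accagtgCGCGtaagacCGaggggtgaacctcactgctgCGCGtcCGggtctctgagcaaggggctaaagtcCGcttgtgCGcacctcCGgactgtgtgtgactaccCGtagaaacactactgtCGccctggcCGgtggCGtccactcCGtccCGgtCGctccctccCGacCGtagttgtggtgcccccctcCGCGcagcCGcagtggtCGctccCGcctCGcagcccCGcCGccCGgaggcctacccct
Tet2 (chr3:133544391-133544640, minus strand): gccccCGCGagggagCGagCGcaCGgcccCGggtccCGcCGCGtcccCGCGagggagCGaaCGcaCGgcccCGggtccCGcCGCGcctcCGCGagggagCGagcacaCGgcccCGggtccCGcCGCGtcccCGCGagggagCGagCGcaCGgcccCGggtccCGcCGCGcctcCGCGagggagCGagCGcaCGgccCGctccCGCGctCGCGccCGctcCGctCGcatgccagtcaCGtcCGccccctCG
Ezh1 (chr11:101226464-101226713, minus strand): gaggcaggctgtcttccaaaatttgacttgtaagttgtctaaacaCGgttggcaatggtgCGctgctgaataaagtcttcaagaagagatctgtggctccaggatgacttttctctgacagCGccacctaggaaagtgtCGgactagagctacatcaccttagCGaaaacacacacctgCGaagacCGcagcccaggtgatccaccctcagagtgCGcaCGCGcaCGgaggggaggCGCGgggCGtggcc
Tet1 (chr10:62887325-62887574, minus strand): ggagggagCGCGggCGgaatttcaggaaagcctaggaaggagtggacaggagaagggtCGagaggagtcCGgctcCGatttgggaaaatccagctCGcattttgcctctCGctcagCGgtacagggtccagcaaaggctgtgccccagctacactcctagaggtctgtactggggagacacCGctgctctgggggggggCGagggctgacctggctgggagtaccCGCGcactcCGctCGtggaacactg

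The 5 deposited lists differed in length and strength in ways that reach every member. They held 26885 and 36467 peaks in the Smc3-het libraries, against 65880, 102822 and 121224 peaks in the Smc3-wt libraries. Presence and number of peaks were therefore taken from lists cut to 1 length, here called equal-size lists, which keep the top 26885 peaks by −log10 p. Coverage in the background, the commonest local background of a list, was 3.59 and 2.92 fragments per base in the Smc3-het libraries and 2.74, 1.93 and 3.02 in the Smc3-wt libraries. Of 8 HSPC markers, 4 to 6 had a peak within 1 kb of a gene end in each library, among them Flt3, Myb and Runx1 in all 5, while Mpo had none. Markers of mature neutrophils and monocytes had 0 of 5 in every library, and B cell markers 1 of 4 in Smc3-wt replicate 3 and 0 in the others. T cell markers had 1 or 2 of 4, erythroid markers 3 or 4 of 4, and stromal and endothelial markers 0 to 2 of 4. Fewer cells of a type and less open chromatin per cell cannot be told apart in bulk samples.

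Most members had an open gene end in every library. A gene end is the 1 kb on either side of the first or last base of a gene. Of the 35 members, 25 carried a peak there in 5 of 5 equal-size lists, against 41.2% of all protein-coding genes. The share was 71.4% of members, against 53.2% of the 16949 genes with a window peak in any library, to which all 35 belong, and 72.4% of the 12459 genes with one in every library, to which Dnmt3b does not. All 6 HDACs and corepressors had one, as did 7 of 9 Polycomb genes, 5 of 7 genes of MLL complexes, 4 of 5 acetyltransferases and remodellers, 3 of 6 genes of DNA methylation and 0 of 2 H3K27 demethylases. A gene-end peak was present in both Smc3-het and no Smc3-wt library at Bcor and Kdm6b, a pattern of 0.402% of all genes. It was absent from both Smc3-het and present in all 3 Smc3-wt libraries at Kdm6a, a pattern of 0.544% of all genes.

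The members had 94 and 89 window peaks in the equal-size lists of the 2 Smc3-het libraries, in the order of their replicate numbers as throughout, and 81, 78 and 88 in those of the 3 Smc3-wt libraries. The median member had 2 window peaks in each library, and the median difference between genotypes was 0, as over all genes with a window peak in any library. In full lists the sums were 94 and 104 in the Smc3-het libraries and 162, 229 and 250 in the Smc3-wt libraries. Window counts in equal-size lists did not overlap between genotypes at 7 members. Smc3-het was above Smc3-wt at Asxl1, Kdm6b, Kmt2a, Kmt2c, Ncor1 and Phf6, a pattern of 3.34% of all genes, or 3.9% of those with a window peak in every library. It was below at Tet3 alone of the members, a pattern of 3.07% of all genes and 4.21% of those with a peak in every library. With full lists, whose lengths differ, 0 members were above and 21 below, against 0.0777% and 33.7% of all genes. With lists cut at a −log10 q of at least 5, also of unequal length, 0 were above and 11 below, and the gene ends that separated the genotypes were 0 in Smc3-het alone and 3 in Smc3-wt alone, against 2 and 1 in equal-size lists. Without Smc3-het replicate 2 the 7 became 12, and without Smc3-het replicate 1 the 3 members with separating gene ends became 5.

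A two-sided exact permutation test, taken as 2 times the smaller one-sided p over the 10 ways to divide 5 libraries into 2 and 3, cannot give a p under 0.2, so no single member could pass a threshold of 0.05. Every window count or relative strength said not to overlap had that p of 0.2, and the Benjamini-Hochberg adjusted p of the window counts over all genes was 1. The differences below are therefore descriptions of these 5 libraries. Strength is given as the pileup at a peak over library background, from full lists. At gene ends it was lower in both Smc3-het than in all 3 Smc3-wt libraries at 22 of the 27 members that had a gene-end peak in 5 of 5 full lists, and at 87.3% of all such genes. It was above without overlap at 0 members and 0.0931% of such genes, and it overlapped at Tet1, Tet3, Jarid2, Bcor and Dot1l. The number of peaks also depends on whether a region is called in 1 piece or several. Counting regions joined over the libraries in place of peaks, Asxl1, Kdm6b, Kmt2a and Phf6 stayed above and Tet3 below, while Kmt2c and Ncor1 overlapped.

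**Figure D1:**
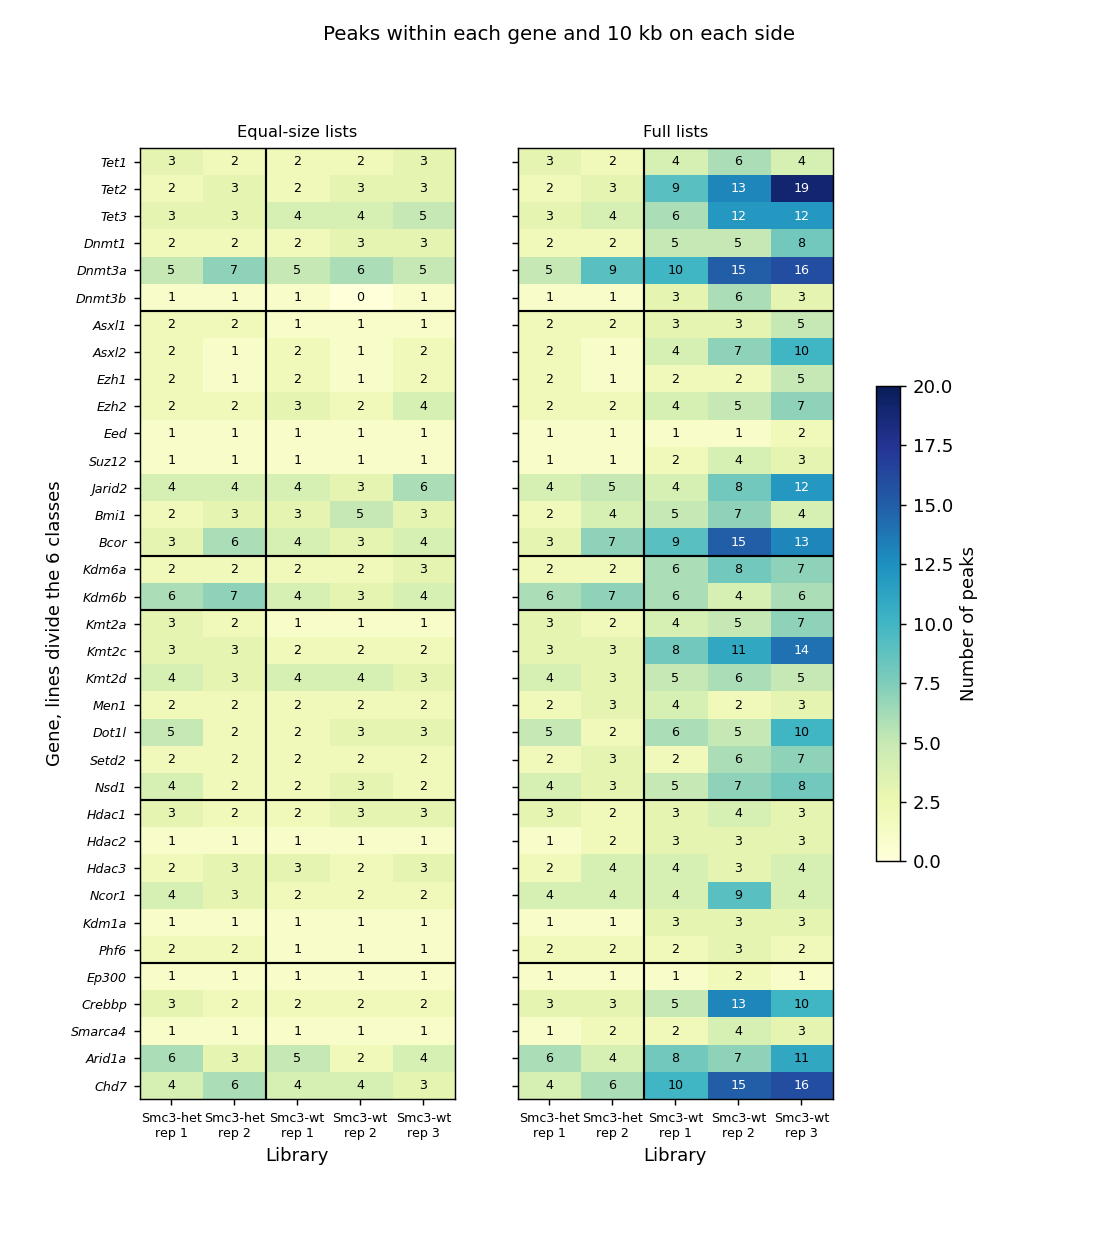
Number of peaks in the window of each of the 35 members (rows, by class) in each library (columns), in equal-size lists on the left and full lists on the right. Dnmt3a, Kdm6b, Chd7 and Jarid2 had the highest sums in equal-size lists, and the full lists of Smc3-wt libraries reached 19 peaks at Tet2.

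Among the genes of DNA methylation, a peak in 5 of 5 libraries lay at a gene end in 3, Tet1, Tet2 and Tet3, and at a start well inside the gene in 3, Dnmt1, Dnmt3a and again Tet3. Dnmt3a, which sets methylation on new sites (chromosome 12, 3801559 to 3914443), had the highest sum of window peaks over the 5 libraries, 28, with 5 and 7 in the Smc3-het libraries and 5, 6 and 5 in the Smc3-wt libraries, and none at a gene end. Its starts 1 and 2 lie 5.42 and 5.60 kb inside the gene and have 38 and 40 CpG in the 250 bases before them. They had no peak within 1 kb in any equal-size list. In full lists start 1 had one in Smc3-wt replicate 2, at 5.71 times background. Start 2 had one in Smc3-wt replicates 2 and 3, at 5.71 and 9.26. Start 3 of Dnmt3a, 90.2 kb inside and with 15 CpG, had a peak within 1 kb in 5 of 5 equal-size lists. Mouse Dnmt3a is known to make a short isoform from an internal promoter; the table used here does not say which start that is. The pileup at start 3, as a multiple of library background, was 7.52 and 10.3 in the Smc3-het libraries and 16.0, 21.3 and 22.2 in the Smc3-wt libraries. The Smc3-het values were lower without overlap, as they were at the gene ends of 87.3% of 9667 genes, and they overlap once divided by the library medians of gene ends, at 0.574 and 0.625 in the Smc3-het libraries and 0.557, 0.707 and 0.573 in the Smc3-wt libraries.

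Dnmt1, which copies methylation after replication (chromosome 9, 20907206 to 20959888), likewise had no gene-end peak in any equal-size list. Its start 1 is the gene end itself and has 2 CpG in the sequence shown. The full list of Smc3-wt replicate 3 had a peak there, at 3.97 times background. Starts 2 and 3 of Dnmt1, 6.91 and 7.27 kb inside, share 1 peak found in 5 of 5 libraries. Start 2 has 7 CpG and start 3 has 26. The pileup over background there was 15.9 and 20.5 in the Smc3-het libraries and 20.4, 35.8 and 35.7 in the Smc3-wt libraries, which overlap. In the mouse, Dnmt1 has an oocyte promoter upstream of the somatic one. Dnmt3b, the other enzyme that sets new methylation, had its only window peak at the gene end, in 4 of 5 equal-size lists, with Smc3-wt replicate 2 the exception. In full lists the strongest gene-end pileup over background was 6.96 and 8.21 in the Smc3-het libraries and 15.3, 8.31 and 14.5 in the Smc3-wt libraries. The 8.31 of Smc3-wt replicate 2 came from a peak outside the region called in the equal-size lists. At that region replicate 2 had 5.71, below both Smc3-het values, so the genotypes overlap there.

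The Tet genes, which oxidise methylated cytosine, differed from each other in strength. Tet2 (chromosome 3, 133463677 to 133545136) had a gene-end pileup of 14.8 and 24.3 times background in the Smc3-het libraries, against 58.7, 63.3 and 74.7 in the Smc3-wt libraries. Tet1 (chromosome 10, 62804570 to 62887469) had 7.24 and 7.53 in the Smc3-het libraries and 6.93, 14.5 and 13.2 in the Smc3-wt libraries. The lowest Tet2 value in each genotype thus exceeded the highest Tet1 value of that genotype. Tet3 had 13.1 and 17.5 in the Smc3-het libraries and 15.7, 16.1 and 21.5 in the Smc3-wt libraries. Tet3 (chromosome 6, 83362373 to 83457208) was also the member with fewer window peaks in Smc3-het, 3 and 3, against 4, 4 and 5 in Smc3-wt libraries. The difference came with a region 75.2 kb inside the gene (83381617 to 83382431) that was called in all 3 Smc3-wt and no Smc3-het equal-size list. Full lists gave the same, but that of Smc3-het replicate 1 is no longer than its equal-size list, and Smc3-wt lists are longer. The share of all regions with this pattern was not counted, and this region was weak. Its pileup was 9.48, 10.4 and 10.6 times background in Smc3-wt libraries.

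**Figure D2:**
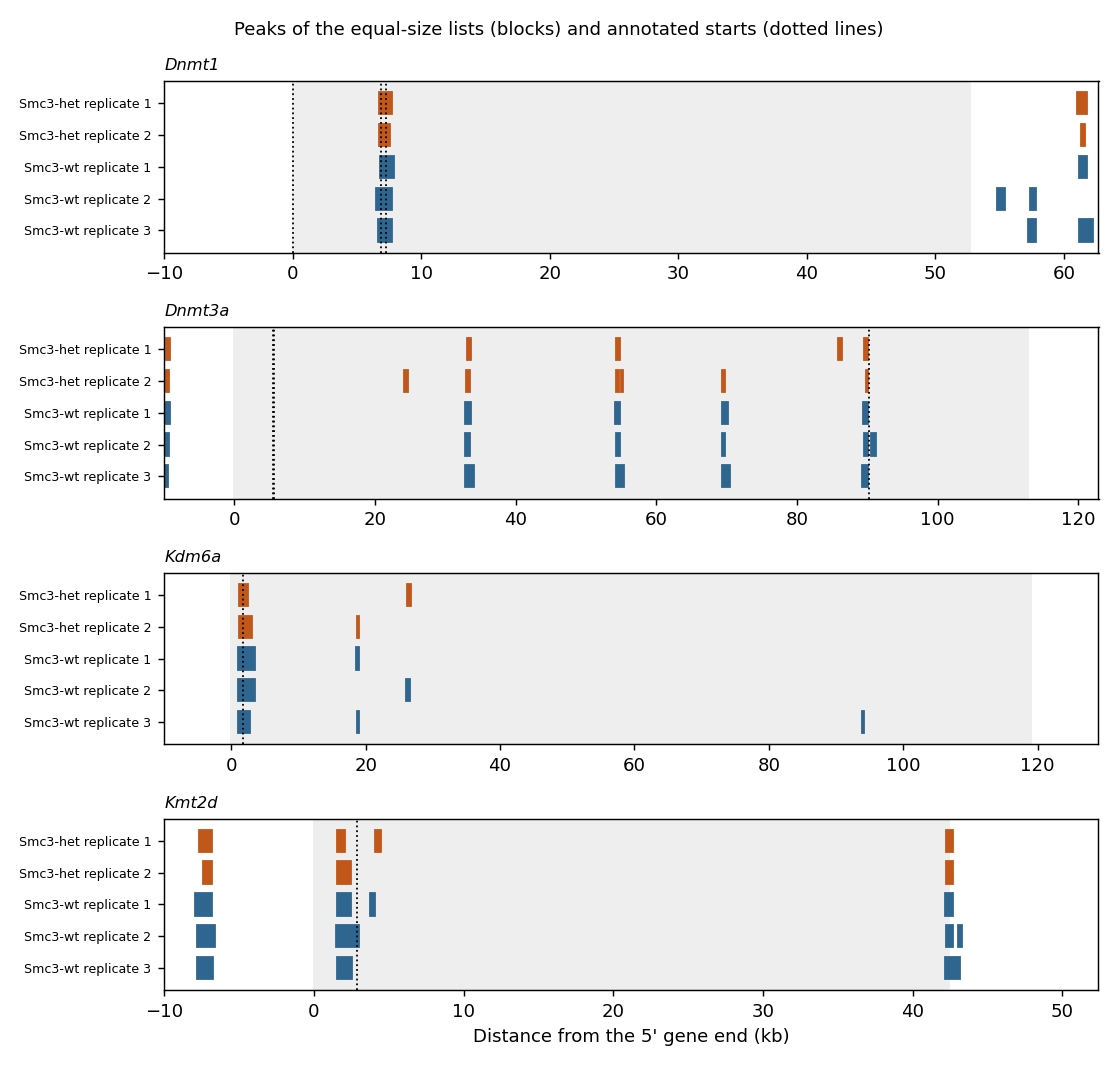
Position of equal-size peaks (blocks) along Dnmt1, Dnmt3a, Kdm6a and Kmt2d in kb from the 5′ gene end, 1 row per library, with the gene body shaded and annotated starts as dotted lines. In each gene the peak near the start that carried one is present in all 5 libraries and lies inside the gene. By the middle of the region joined over libraries, it lies 2.25 kb inside at Kdm6a, 2.26 kb at Kmt2d, 7.19 kb at Dnmt1 and 89.7 kb at Dnmt3a.

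Of the Polycomb genes, 7 of 9 had an open gene end in every library, and the catalytic subunits were far apart in strength. Ezh2, the main H3K27 methyltransferase of dividing cells (chromosome 6, 47530274 to 47595270), had a gene-end pileup of 18.9 and 31.5 times background in the Smc3-het libraries and 45.9, 51.9 and 68.4 in the Smc3-wt libraries. Its paralogue Ezh1 (chromosome 11, 101191115 to 101226463) had 6.96 and 9.58 in the Smc3-het libraries and 9.84, 10.9 and 11.6 in the Smc3-wt libraries. Ezh2 was above Ezh1 in all 5 libraries. Eed, which reads methylated H3K27, had 19.8 and 26.01 in the Smc3-het libraries against 51.8, 74.8 and 71.1 in the Smc3-wt libraries. Suz12, the scaffold of the complex, had 17.8 and 14.4 in the Smc3-het libraries against 20.05, 23.9 and 30.4 in the Smc3-wt libraries. Eed and Suz12 had 1 window peak in every library, at the gene end.

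Asxl1 and Asxl2, partners of the H2A deubiquitinase Bap1, both had a gene-end peak in 5 of 5 libraries. Asxl2 had a pileup of 15.9 and 32.9 times background in the Smc3-het libraries and 78.0, 64.4 and 67.1 in the Smc3-wt libraries. Asxl1 had 15.0 and 25.7 in the Smc3-het libraries and 35.4, 29.1 and 41.3 in the Smc3-wt libraries. Asxl1 had 2 window peaks in both Smc3-het and 1 in each Smc3-wt library. The additional peak lay in different places, 9.34 kb before the gene in Smc3-het replicate 1 and 5.12 kb inside it in replicate 2. The first of these regions was also called in the full list of Smc3-wt replicate 3, and the second in all 3 full Smc3-wt lists.

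Jarid2, an accessory subunit that guides the methyltransferase (chromosome 13, 44730774 to 44921643), held the strongest of the regions inside members that were called in 5 of 5 libraries. It lies 139 kb from the 5′ end (44869564 to 44870028, 465 bp) and had a pileup of 71.5 and 89.3 times background in the Smc3-het libraries and 110, 83.6 and 130 in the Smc3-wt libraries. In each library it ranked at or above the 99.3 percentile of the equal-size list by −log10 p. Its edges were nearly the same in all 5 libraries, at 138.79 to 138.791 kb and 139.241 to 139.254 kb. No regions prone to mapping artefacts were filtered out here, and whether this is such a region was not tested. The gene end of Jarid2 was weaker in every library, with 10.02 and 19.2 in the Smc3-het libraries and 25.1, 18.2 and 36.7 in the Smc3-wt libraries. A further Jarid2 region, 69.4 kb inside (44799936 to 44800408), was called in both Smc3-het and no Smc3-wt equal-size list, and in 3 of 5 full lists, Smc3-wt replicate 3 included. Its pileup was 4.18 and 5.13 times background in the Smc3-het libraries and 4.96 in Smc3-wt replicate 3.

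Bmi1, a subunit of the H2A ubiquitin ligase (chromosome 2, 18677018 to 18686629), had a gene-end peak in Smc3-wt replicate 2 alone, and in 4 of 5 full lists. Peaks in 5 of 5 libraries flanked it instead, 4.52 kb before its start at an end of Commd3 and beyond its other end at Spag6. The flanking region at Commd3 had a pileup of 10.3 and 13.3 times background in the Smc3-het libraries and 38.6, 32.2 and 40.3 in the Smc3-wt libraries. Bcor, an X-linked corepressor of a variant Polycomb complex (12036737 to 12160516), had a gene-end peak in both Smc3-het and no Smc3-wt equal-size list. The peaks lay in different places, 12160094 to 12160481 in Smc3-het replicate 1 and 12159405 to 12159817 in replicate 2. The first region was called in all 3 full Smc3-wt lists and the second in those of Smc3-wt replicates 2 and 3. In full lists all 5 libraries had one, at 6.12 and 4.79 times background in the Smc3-het libraries and 4.74, 8.31 and 4.63 in the Smc3-wt libraries, which overlap. A region 73.0 kb inside Bcor (12086894 to 12088178) was called in all 3 Smc3-wt and no Smc3-het equal-size list. It had 10.9, 17.7 and 14.9 times background in Smc3-wt libraries. Full lists gave the same calls, with the limit given for the Tet3 region.

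At both H3K27 demethylases the genotypes separated at the gene end, with peaks near the 1 kb limit. The peak of Kdm6a (chromosome X, 18160862 to 18279936) began 1108 and 1092 bp from the gene end in the Smc3-het libraries, and 998, 960 and 971 bp in the Smc3-wt libraries. It covers the annotated start, 1.71 kb inside, in all 5, with a pileup of 21.7 and 39.4 times background in the Smc3-het libraries and 30.3, 77.4 and 45.0 in the Smc3-wt libraries. Kdm6b (chromosome 11, 69398508 to 69420367) had its nearest peak at 980 and 393 bp in the Smc3-het libraries and at 1154, 1023 and 1014 bp in the Smc3-wt libraries. The peak of Smc3-het replicate 1 belongs to a region called in 5 of 5 libraries (69417679 to 69419387). That of replicate 2 is a separate region of 286 bp at an end of Dnah2 (69419689 to 69419974), called in this equal-size list alone and also in the full list of Smc3-wt replicate 3. With gene ends of 0.5 kb, 0 members separated. Peaks of equal-size lists were wider in Smc3-wt, with means of 577 and 632 bp in the Smc3-het libraries and 803, 761 and 906 bp in the Smc3-wt libraries.

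Kdm6b is a short gene, 21.9 kb, with many peaks, 6 and 7 in the window in the Smc3-het libraries and 4, 3 and 4 in the Smc3-wt libraries, or 6.50 ± 0.707 (SD, n = 2) against 3.67 ± 0.577 (SD, n = 3). In full lists the counts overlapped, 6 and 7 in the Smc3-het libraries and 6, 4 and 6 in the Smc3-wt libraries. Its gene-body region of 3279 bp (69408597 to 69411875) was present in 5 of 5 libraries at 17.3 and 14.7 times background in the Smc3-het libraries and 12.4, 18.2 and 29.1 in the Smc3-wt libraries. Counted as joined regions, Kdm6b had 5 and 5 in the Smc3-het libraries and 3, 3 and 4 in the Smc3-wt libraries.

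Among the genes of MLL complexes, Kmt2a itself had weak and scattered peaks around its start. Kmt2a, the H3K4 methyltransferase MLL (chromosome 9, 44803355 to 44881352), had a gene-end peak in Smc3-het replicate 2 alone. In Smc3-het replicate 1 the nearest peak lay 1078 bp from the gene end, and in Smc3-wt replicate 3 it lay 1209 bp inside. Full lists had a peak within 1 kb in 3 of 5 libraries, at 7.53 times background in replicate 2 of Smc3-het and 7.65 and 12.2 in Smc3-wt replicates 1 and 3. Window counts were 3 and 2 in the Smc3-het libraries and 1, 1 and 1 in the Smc3-wt libraries. In Smc3-wt replicates 1 and 2 the single peak was that of the neighbours Tmem25 and Ttc36, beyond the far end.

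The other H3K4 methyltransferases had open starts in all libraries. Kmt2c (chromosome 5, 25271795 to 25498855) had 3 and 3 window peaks in the Smc3-het libraries and 2, 2 and 2 in the Smc3-wt libraries, and a gene-end pileup of 13.9 and 25.7 times background in the Smc3-het libraries and 42.3, 50.9 and 56.5 in the Smc3-wt libraries. Kmt2d (chromosome 15, 98831669 to 98874077) had its gene-end peak at the 3′ end, which it shares with Prkag1, while its own annotated start, 2.87 kb inside, had a peak within 1 kb in 5 of 5 libraries. That peak had a pileup of 10.9 and 14.0 in the Smc3-het libraries and 19.7, 19.7 and 21.8 in the Smc3-wt libraries. Kmt2d had 4 and 3 window peaks in the Smc3-het libraries and 4, 4 and 3 in the Smc3-wt libraries.

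Of the other methyltransferase genes, Dot1l, the H3K79 methyltransferase, had 5 and 2 window peaks in the Smc3-het libraries and 2, 3 and 3 in the Smc3-wt libraries. Its gene-end pileup was 19.2 and 15.4 times background in the Smc3-het libraries and 26.2, 18.2 and 26.8 in the Smc3-wt libraries. Men1, which tethers Kmt2a to chromatin, and Setd2, which trimethylates H3K36, had 2 window peaks in each library. Nsd1, which dimethylates H3K36, is a boundary case like the Kdm6 genes. Its peak lay 929 and 958 bp from the gene end in the Smc3-het libraries and 933, 972 and 1089 bp in the Smc3-wt libraries, so that Smc3-wt replicate 3 was counted as without one.

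The HDACs and corepressors all had open gene ends in the 5 libraries, and the strongest gene end of the 27 members with a value in all 5 libraries was that of Hdac2. Hdac2 (chromosome 10, 36974297 to 37001889) had a pileup of 20.9 and 33.2 times background in Smc3-het, or 27.04 ± 8.71 (SD, n = 2), against 112, 125 and 119 in the Smc3-wt libraries, or 119 ± 6.38 (SD, n = 3). Among 9667 genes with a gene-end peak in 5 of 5 full lists it ranked at the 83.3 and 91.2 percentiles in Smc3-het and at the 98.4, 99.0 and 96.6 percentiles in Smc3-wt libraries. Its paralogue Hdac1 (chromosome 4, 129516104 to 129542646) had 16.4 and 17.8 in the Smc3-het libraries and 20.05, 21.3 and 24.5 in the Smc3-wt libraries. Hdac2 was above Hdac1 in all 5 libraries, with 1 window peak in each, against 2 or 3 at Hdac1. Hdac3, the catalytic partner of Ncor1, had 10.02 and 10.6 in the Smc3-het libraries and 21.5, 25.4 and 25.5 in the Smc3-wt libraries, at an end it shares with Fchsd1 and Rell2.

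Ncor1, a nuclear receptor corepressor (chromosome 11, 62315663 to 62457414), had 4 and 3 window peaks in the Smc3-het libraries and 2, 2 and 2 in the Smc3-wt libraries. Its start 1, with 34 CpG, had a peak in 5 of 5 libraries, at an end shared with Pigl, and its start 2, 18.9 kb inside and with 2 CpG, had none, in full lists as well. Phf6, an X-linked chromatin reader (52912214 to 52956961), had 2 and 2 window peaks in the Smc3-het libraries and 1, 1 and 1 in the Smc3-wt libraries. The additional Phf6 peaks lay at 2 different places, each in 1 Smc3-het library, at 3.62 and 5.48 times background. Kdm1a, an H3K4 demethylase, had 1 window peak in each library, at the gene end.

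Among acetyltransferases and remodellers, Ep300, its paralogue Crebbp and Smarca4, the ATPase of the BAF remodelling complex, had a gene-end peak in 5 of 5 libraries. Smarca4 had a pileup of 16.1 and 14.0 times background in the Smc3-het libraries and 22.6, 19.2 and 31.7 in the Smc3-wt libraries. Arid1a, a BAF subunit, had 6 and 3 window peaks in the Smc3-het libraries and 5, 2 and 4 in the Smc3-wt libraries, so the genotypes overlapped. Chd7, a remodeller of the chromodomain family (chromosome 4, 8690402 to 8868449), had a gene-end peak in 4 of 5 libraries, with Smc3-het replicate 2 the exception. Its pileup was 4.45 times background in Smc3-het replicate 1, against 8.38, 10.4 and 9.59 in the Smc3-wt libraries. Chd7 had 4 and 6 window peaks in the Smc3-het libraries and 4, 4 and 3 in the Smc3-wt libraries, and of its 8 regions inside the gene 0 were called in all 5.

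Since gene-end pileup over background was lower in Smc3-het across all genes, the members were compared relative to their library. The median over 9667 genes was 13.1 and 16.4 in the Smc3-het libraries and 28.8, 30.1 and 38.7 in the Smc3-wt libraries. The 27 members with a gene-end peak in 5 of 5 full lists had medians of 13.9 and 14.0 in the Smc3-het libraries and 21.5, 21.3 and 30.4 in the Smc3-wt libraries. Polycomb genes had the highest class medians in every library, 15.5 and 22.4 in the Smc3-het libraries and 30.3, 26.5 and 39.0 in the Smc3-wt libraries. Genes of DNA methylation had the lowest in 4 of the 5 libraries, 10.2 and 12.8 in the Smc3-het libraries and 15.5, 15.3 and 18.02 in the Smc3-wt libraries, with the HDACs lower in Smc3-het replicate 2 at 12.3. That class median rests on 4 genes, the Tet genes and Dnmt3b. Another 7 genes of DNA methylation, not among the members, had medians above those of all genes in every library. These were 15.9 and 16.8 in the Smc3-het libraries and 39.0, 44.1 and 60.5 in the Smc3-wt libraries. Dnmt1, Dnmt3a, Bmi1, Kdm6a, Kdm6b, Kmt2a, Nsd1 and Chd7 have no value here.

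**Figure D3:**
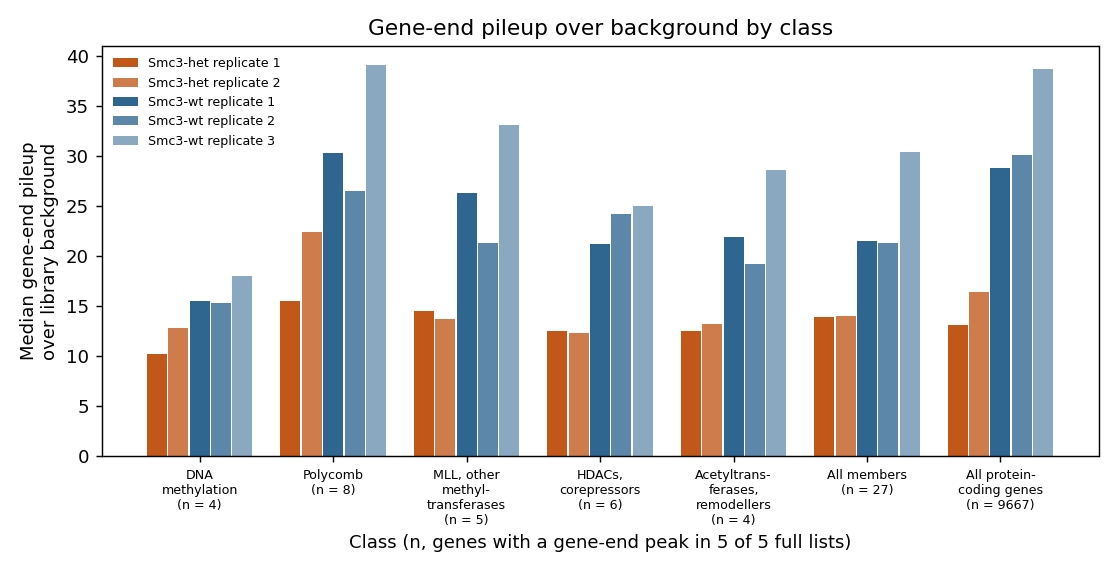
Median gene-end pileup over library background (linear axis from 0) for each class with a value, all 27 members and all 9667 genes, 1 bar per library, Smc3-het to the left. The classes of DNA methylation, of HDACs and corepressors, and of acetyltransferases and remodellers each lay below the median of all genes in every library. In each group of bars both Smc3-het bars were below all 3 Smc3-wt bars.

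Divided by the library median, strengths of the 2 genotypes did not overlap at 11 of 27 members, in about the share of all genes. Smc3-het was above at Tet3, Ezh1, Suz12, Bcor, Dot1l, Hdac1 and Smarca4, a pattern of 19.2% of all genes, and below at Tet2, Eed, Hdac2 and Phf6, a pattern of 22.4%; without the division no member was above. The 11 became 17 without Smc3-het replicate 1 and 22 without Smc3-het replicate 2. Hdac2 had a relative strength of 1.60 and 2.02 in the Smc3-het libraries and 3.89, 4.14 and 3.08 in the Smc3-wt libraries, a log2 difference of −1.03. Tet2 had 1.13 and 1.48 in the Smc3-het libraries and 2.04, 2.10 and 1.93 in the Smc3-wt libraries, a log2 difference of −0.65. These were the members furthest below. Tet3 had 1.00 and 1.06 in the Smc3-het libraries and 0.544, 0.534 and 0.556 in the Smc3-wt libraries, a log2 difference of 0.92. Hdac1 had 1.26 and 1.08 in the Smc3-het libraries and 0.696, 0.707 and 0.632 in the Smc3-wt libraries, a log2 difference of 0.78. Bcor alone of the 27 was further above, at 1.07, with peaks at different places in the 2 Smc3-het libraries. Its gene-end pileups were only 13 to 22 fragments, and its difference depends on the 1 kb limit. In Smc3-wt replicate 3 its relative strength was 0.120 at the gene end, but 0.188 within 1 kb of its annotated starts. The log2 differences of Ezh1, Dot1l, Suz12 and Smarca4 were 0.74, 0.69, 0.53 and 0.47, and those of Eed and Phf6 −0.38 and −0.21.

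The direction of the members' differences changed with strength, as it did over all genes. The range of relative strengths was narrower in Smc3-het: the 90th over the 10th percentile of all 9667 genes was 3.48 and 4.09 in the Smc3-het libraries and 5.69, 5.24 and 5.53 in the Smc3-wt libraries. Among all genes, Smc3-het had the higher group mean at 77.7% of genes in the weakest of 4 bins by mean rank, 58.0% and 42.1% in the middle bins and 22.8% in the strongest. Among the members it was higher at 6 of 6 in the weakest bin, among them Tet1, Ezh1 and Bcor, and at 0 of 5 in the strongest, Asxl2, Eed, Ezh2, Hdac2 and Tet2. In between it was higher at 11 of 14, a larger share than over all genes of that bin, and at 1 of 2. The bins were ranked on these 5 libraries, so this is a description with no test.

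**Figure D4:**
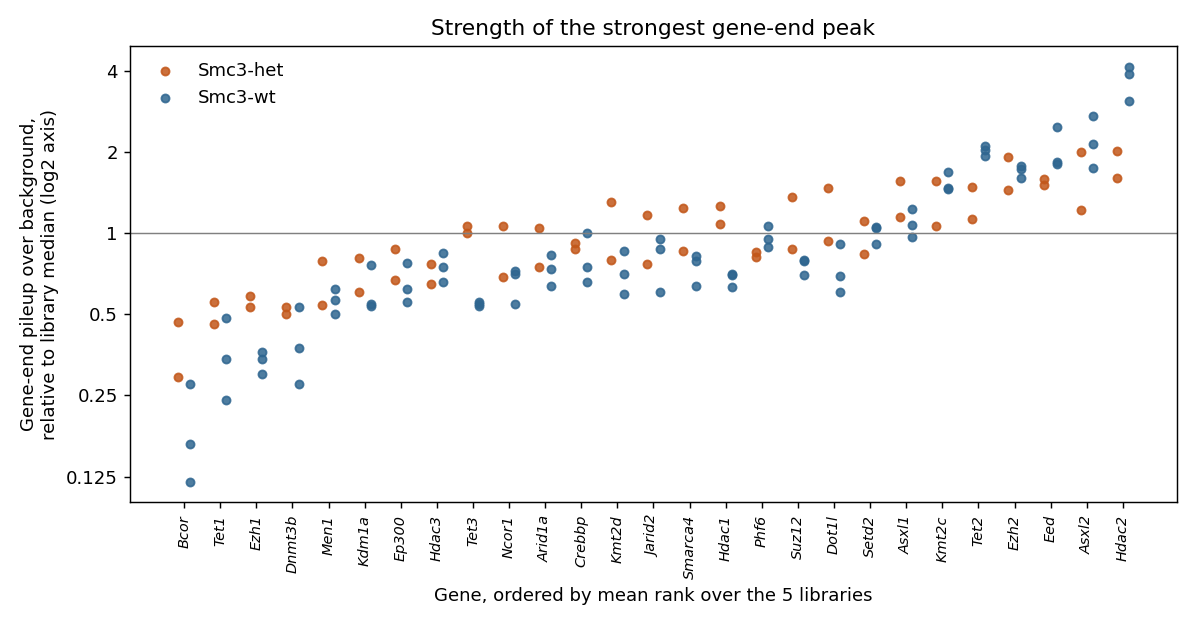
Gene-end pileup over background relative to the library median (log2 axis, 1 is the median of 9667 genes) for 27 members ordered by mean rank over the 5 libraries, 1 point per library. Smc3-het points lie mostly above Smc3-wt points at weak gene ends on the left, and below them at Tet2, Eed and Hdac2 on the right.

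Inside the members, more than 1 kb from either end, with distances taken to the middle of a region, the equal-size lists gave 71 joined regions, of which 11 were called in 5 of 5 libraries and 37 in 1 library. Exons and introns were not told apart, since the gene table gives neither. Of 39 gene-end regions, 29 were called in 5 of 5. Interior regions numbered 32 and 33 in the Smc3-het libraries and 30, 24 and 38 in the Smc3-wt libraries. Among the 11 were 3 of Dnmt3a, 2 of Jarid2 and 1 each of Dnmt1, Tet1, Tet3, Kmt2d, Bcor and Kdm6b, and those of Dnmt1, Tet3 and Kmt2d and 1 of Dnmt3a lay within 1 kb of an annotated start of the gene. The Tet3 region, 15.6 kb inside, is also at the start of the noncoding B230319C09Rik. The HDACs and the remodellers had none in 5 of 5 libraries.

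Apart from starts, Dnmt3a had regions in 5 of 5 libraries at 33.4 and 54.8 kb inside the gene. The first (3834351 to 3835590) had a pileup of 10.3 and 7.53 times background in the Smc3-het libraries and 14.9, 20.2 and 22.8 in the Smc3-wt libraries. The second (3855724 to 3856935) had 14.5 and 10.6 in the Smc3-het libraries and 16.0, 18.2 and 26.8 in the Smc3-wt libraries. Both were below Smc3-wt without overlap before division by the library median, as at the gene ends of most genes. A Tet1 region 21.9 kb inside (62865226 to 62865992) had 5.85 and 7.87 in the Smc3-het libraries and 9.84, 16.1 and 20.5 in the Smc3-wt libraries, above the gene end of Tet1 in 4 of the 5 libraries, with Smc3-het replicate 1 the exception. A Jarid2 region 2.99 kb inside (44733263 to 44734256) had 13.9 and 15.7 in the Smc3-het libraries and 17.1, 24.4 and 29.4 in the Smc3-wt libraries. The region 83.2 kb inside Bcor (12077007 to 12077698) was stronger than the gene end of Bcor in every library, at 6.96 and 7.53 in the Smc3-het libraries and 8.38, 14.5 and 11.9 in the Smc3-wt libraries.

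**Figure D5:**
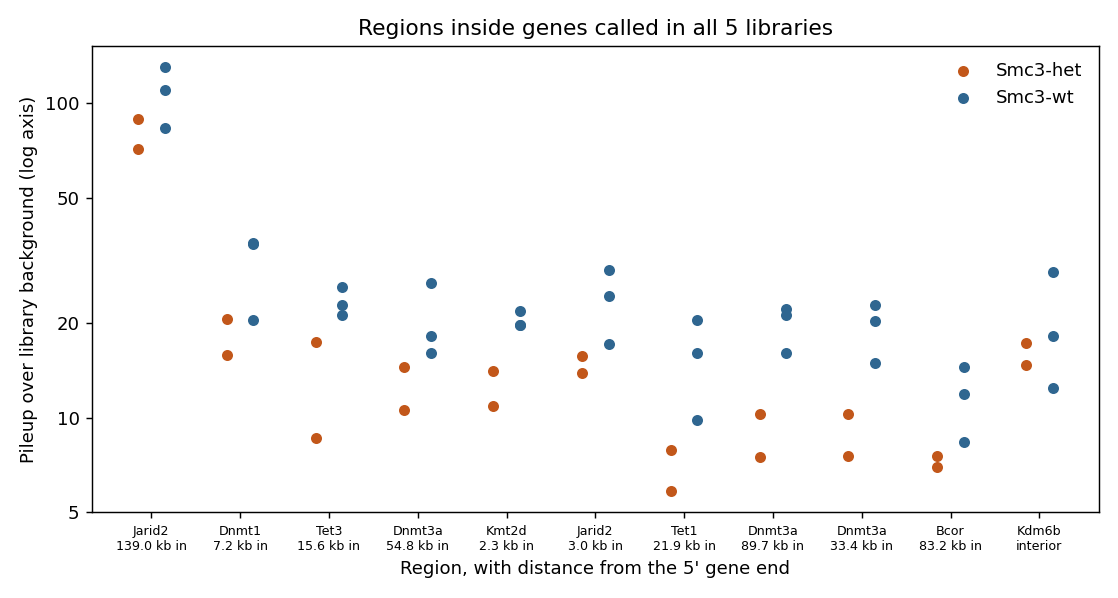
Pileup over library background (log axis) of the 11 regions inside members that were called in all 5 libraries, ordered by their lowest percentile in any list, 1 point per library. The Jarid2 region 139 kb inside stands above the other 10 in every library, at 71.5 to 130 times background.

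The promoters of the members were richer in CpG than others. The median was 22 CpG in 250 bases over 39 starts of members, against 10 over 21263 starts of all coding genes, which are not matched to the members in any way. A peak lay within 1 kb of an annotated start in 5 of 5 libraries at 25 of 29 members, against 44.1% of 17492 coding genes. CpG content did not order the starts by itself. In equal-size lists the median was 23 at the 29 starts with a peak in 5 of 5 libraries and 20 at the 4 with none. The 4 hold the CpG-rich Dnmt3a starts and the CpG-poor ones of Dnmt1 and Ncor1. Of these, only the Ncor1 start had no peak in any full list. Starts of 1 gene can share bases and a peak. The start of Tet2, with 51 CpG, and that of Eed, with 12, both lay in the strongest bin of gene ends.

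Motif matches were sought as letters on either strand of the same 250 bases. The Sp/KLF core GGGCGG was in 30 of 39 member promoters, against 42.6% of all. The ETS core CCGGAAG was in 4, those of Asxl1, Asxl2, Dot1l and start 1 of Ncor1, against 8.98% of all. The RUNX core TGTGGT was in 5, those of Asxl1, Ezh2, Hdac2, start 1 of Jarid2 and start 2 of Ncor1, against 12.4% of all. The NF-Y core CCAAT was in 10 against 35.4%, and GATA, as AGATAA, in 0 against 8.81%. A match is not a bound site, and the absence of one concerns these letters in this window alone.

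Bcor, Kdm6a and Phf6 lie on the X chromosome, and the libraries differed at the Y chromosome. Of the Y-linked genes Kdm5d, Eif2s3y, Uty and Ddx3y, 0 of 4 had a gene-end peak in both Smc3-het libraries, against 4, 0 and 4 of 4 in the Smc3-wt libraries. Among 239 X-linked genes with a value, relative gene-end strength was lower in Smc3-het without overlap at 81 and higher at 23. These patterns held at 22.4% and 19.2% of all 9667 genes with a value. The highest Kdm6a pileup, 77.4 times background, was that of Smc3-wt replicate 2. The part of the animals' sex in these values was not tested.

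Of 85 other genes of the same pathways, 61 had a gene-end peak in 5 of 5 libraries, or 71.8%. The share was 41.2% of all protein-coding genes and 53.2% of those with a window peak in any library. It was 72.4% of the genes with a window peak in every library, to which not all of the 85 belong. A gene end was open in both Smc3-het and no Smc3-wt library at 0 of the 85, a pattern of 0.402% of all genes. It was open in all 3 Smc3-wt and no Smc3-het library at Setd1b, an H3K4 methyltransferase, and Kat6b, an acetyltransferase. That is a pattern of 0.544% of all genes. The relative gene-end strength of Kat6b was 2.38, 2.17 and 2.24 in the Smc3-wt libraries, and full Smc3-het lists had no peak there. Distances from these 2 gene ends to the nearest peak were not measured. Whether they are cases at the 1 kb limit, as at Kdm6a, was therefore not tested. Window counts were above Smc3-wt without overlap at 5, Ash1l, Ncoa6, Kat6a, Smarca2 and Brd7, a pattern of 3.34% of all genes. They were below at 6, Mbd1, Phc1, Phc3, Kmt2b, Mllt3 and Mta1, a pattern of 3.07% of all genes. Mllt3, a subunit of the elongation complexes that Kmt2a fusions recruit, had 3 and 5 in the Smc3-het libraries and 7, 6 and 9 in the Smc3-wt libraries, the widest of these differences. Kat6a had 4 and 4 in the Smc3-het libraries and 1, 2 and 2 in the Smc3-wt libraries. Relative strength did not overlap at 28 of 65, with Smc3-het above at 14 and below at 14, in about the share of all genes. Those patterns held at 19.2% and 22.4% of all genes with a value.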

How the data were processed

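The deposited data are 5 peak lists, 1 per library, with no pooling. Per the submitters' processing notes, Bowtie2 aligned the reads to mm10 and MACS2 called the peaks, without versions. Each deposited list holds a peak's summit coverage signal as a whole-number fragment pileup and, per the file headers, a fold enrichment, pileup over local background as a ratio within that library. By column order and values, 2 deposited columns whose headers were lost are the −log10 p and −log10 q. These scores are the authors' own; the total number of fragments was not used here.

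Groups came from the sample titles. Library background followed from pileup, fold and the MACS2 pseudocount of 1 as the commonest value, that of 19.8% and 43.2% of peaks in the Smc3-het libraries and 46.9%, 59.7% and 59.2% in the Smc3-wt libraries. The lowest −log10 p of the equal-size lists was 3.47 and 5.66 in the Smc3-het libraries and 9.84, 10.4 and 14.4 in the Smc3-wt libraries, so these lists reach weaker peaks in Smc3-het. Gene spans and starts were from RefSeq tables of GRCm38.p6. Overlap was at least 1 bp. For single genes, an exact permutation test (two-sided) set the genotype means against each other; other counts are descriptions. Scripts (Python 3.11.15, numpy 2.4.6, pandas 2.3.3) were tested on simulated peaks. The members and lists were chosen with earlier results of these data known. Values are given in full for members with a gene end not in 5 of 5 lists or with counts or strengths that did not overlap, and for the 2 members of each class with most window peaks; regions inside genes are those in 5 of 5 lists, up to 10 by lowest percentile, and the 3 that separated the genotypes. The alternatives were list length, thresholds, ranking, overlap, gene-end and window width, scaling, each library left out and pairing by title number.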

Additional observations from a re-analysis of the deposited data

How the results depend on the processing

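Members with a gene-end peak in every library numbered 25, and 19 to 28 under the alternatives. The 3 members whose gene end separated the genotypes (2 in Smc3-het alone, 1 in Smc3-wt alone) became 1 with full lists, lists of 13442 peaks, −log10 q of at least 10, at least 50% of the peak inside or gene ends of 2.5 kb, and 0 with gene ends of 0.5 kb; at −log10 q of at least 5 they were again 3, all in Smc3-wt alone. The 7 members with window counts that did not overlap, 6 above and 1 below, became 21 with full lists, 11 at −log10 q of at least 5 and 8 at 10, all below, 2 with lists of 13442 peaks and 3 in gene bodies alone. The median difference over the 35 members, 0, became −2.5 with full lists, −1.17 and −0.833 at −log10 q of at least 5 and 10, and 0.167 with lists ranked by fold. Lists cut by q are of unequal length, 17309 to 64101 peaks at 5. The 11 regions inside genes in every library became 6 with lists of 13442 peaks and 4 at −log10 q of at least 10. The 11 members whose relative strength did not overlap became 22, all lower in Smc3-het, without division by the library median, and 7 with the deposited fold. The cause was not tested.

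Leaving out 1 library in turn gave 25 to 26 gene ends, 3 to 5 separating members, 7 to 12 window counts, a median difference of 0 to 0, 11 to 14 regions and 14 to 22 strengths. Without Smc3-het replicate 1 the separating members were 5 and the strengths 17, and without Smc3-het replicate 2 the window counts were 12 and the strengths 22; groups of 1 library overlap less readily. With the replicate block, pairing libraries 1 and 2 by title number and counting paired differences of 1 sign, the strengths were 17 and the other counts 26, 3, 9 and 13, with a median of 0. Deviations of same-numbered libraries correlated at −0.0875 and −0.0477; with 2 Smc3-het libraries these mirror the other pairings and cannot show whether numbers pair. The labels tie no number to an animal or batch, and library names number the Smc3-wt libraries differently from the titles. Of 3 alternatives chosen after seeing the data, ranks in place of ratios gave 10 strengths, joined regions 5 window counts and annotated starts 25 members. The 5 libraries and weak Smc3-het peaks limit all counts: absence from a list is not absence of open chromatin.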

Other observations

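Open chromatin in the members' windows was in part that of their neighbours. Of 30 regions outside the gene ends of the members but within 10 kb, 13 were called in all 5 libraries, and 14 lay within 1 kb of an end of another protein-coding gene. At Nsd1 such a region lay at Prelid1 and Rab24, at Setd2 at Nbeal2 and Nradd, at Dot1l at Plekhj1 and Sf3a2, at Hdac1 at Marcksl1 and at Crebbp at Trap1, each called in 5 of 5 libraries. The gene-end peaks of Men1, Kmt2d, Hdac3 and Ncor1 also lay at an end of another gene, Map4k2 for 1 of the 2 Men1 regions, Prkag1 for Kmt2d, Fchsd1 and Rell2 for Hdac3 and Pigl for Ncor1. A peak in these places is counted for both genes.

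Gene ends of the members lay far apart in strength in each library. Hdac2 stood between the 83.3 and 99.0 percentiles of 9667 gene ends, Ezh1 between the 4.62 and 17.1 percentiles and Bcor, below Ezh1 in every library, between the 0.0983 and 5.31 percentiles. Suz12 stood at the 73.3 and 41.1 percentiles in the Smc3-het libraries and the 31.2, 35.9 and 36.1 percentiles in the Smc3-wt libraries.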
